A study of Mus musculus with 11 samples.

Results

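The 10 miRNAs described here are markers of epithelial cells: the 5 members of the miR-200 family (miR-200a, miR-200b, miR-200c, miR-141 and miR-429), miR-205, miR-31, and the 3 miRNAs of the miR-183 cluster (miR-183, miR-96 and miR-182). They were chosen by name (mmu-miR-200a, mmu-miR-200b, mmu-miR-200c, mmu-miR-141, mmu-miR-429, mmu-miR-205, mmu-miR-31, mmu-miR-183, mmu-miR-96 and mmu-miR-182 in the table, without star forms), and all 10 were found among the 566 mouse miRNA probes. Oviducts came from female CD1 mice, an outbred strain, aged 6 to 8 weeks. On the day of estrus each mouse had an intraperitoneal injection in phosphate-buffered saline with 0, 2 or 10 µg of lipopolysaccharide (LPS) from E. coli, and was killed 24 h later. LPS coats Gram-negative bacteria and sets off inflammation through Toll-like receptor 4. The groups analysed were 3 control mice (0 µg), 4 low dose mice (2 µg) and 4 high dose mice (10 µg). The plan was for 4 mice per treatment, and a further control was not analysed here. The nCounter assay for mouse miRNAs was run on total RNA of whole oviducts; in it each miRNA is tagged, hybridised to a fluorescent barcode and counted without amplification.

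The oviduct is a muscular tube lined by ciliated and secretory epithelial cells. The miR-200 family keeps epithelial cells epithelial by repressing ZEB1 and ZEB2, the transcription factors that silence E-cadherin, and ZEB factors repress the miR-200 genes in return. miR-205 targets the same ZEB factors. Female mice lacking miR-200b and miR-429 fail to ovulate. The miR-183 cluster is best known from sensory epithelia of the ear and eye, and miR-31 from skin and other stratified epithelia.

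The mature sequences are shown because the family is defined by its seeds, bases 2 to 8, which are in capitals. All 10 names were matched to RefSeq mature miRNAs (build GRCm38.p6), taking the 3p arm for the miR-200 family and the 5p arm for the others. The table's names give no arm, so this choice rests on general knowledge of the older names, and the sequences, seeds and base differences below rest on it.
miR-200b: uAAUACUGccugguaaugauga
miR-200c: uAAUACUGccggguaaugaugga
miR-429: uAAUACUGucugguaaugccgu
miR-200a: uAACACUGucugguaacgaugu
miR-141: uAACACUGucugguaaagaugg
miR-96: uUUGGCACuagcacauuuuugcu
miR-182: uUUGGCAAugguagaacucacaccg
miR-183: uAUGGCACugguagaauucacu
miR-205: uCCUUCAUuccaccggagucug
miR-31: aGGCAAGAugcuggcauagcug

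miR-200b, miR-200c and miR-429 share the seed AAUACUG, and miR-200a and miR-141 share AACACUG. Among the 1679 mature mouse miRNAs of the RefSeq table, 3 carry the former and 2 the latter, and these are the family members themselves. The seeds differ at 1 base (C4U, counted from 1 at the 5′ end, with the base of miR-200a first and that of miR-200b last). The mature forms are close to one another. miR-200a and miR-141 differ at 2 of 22 positions (C17A and U22G), and miR-200b and miR-200c at 2 of 22 (U11G and A22G), with 1 further base at the end of miR-200c. miR-200a and miR-429 differ at 4 of 22 (C4U, C17U, A19C and U20C). Each had its own probe, and how much one probe picks up of a near-identical miRNA was not tested.

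The 10 genes lie in 5 places, all on the minus strand of GRCm38.p6. Mir200b, Mir200a and Mir429 lie within 1846 bases on chromosome 4 (chr4:156053905-156055750), overlapping the non-coding gene Gm13648, between the protein-coding genes Ttll10 and 9430015G10Rik. Mir200c and Mir141 lie within 477 bases on chromosome 6 (chr6:124717914-124718390), between Phb2 and Ptpn6. Mir183, Mir96 and Mir182 lie within 3820 bases on chromosome 6 (chr6:30165918-30169737), overlapping the non-coding gene Mirc35hg. Mir205 (chr1:193507463-193507530) overlaps the non-coding gene Mir205hg, and Mir31 (chr4:88910557-88910662) the non-coding gene Gm49890. The hairpins of miR-200a and miR-429, 908 bases apart, are printed because the ratio of the pair separated the groups. Capitals mark the mature form.
Mir200a: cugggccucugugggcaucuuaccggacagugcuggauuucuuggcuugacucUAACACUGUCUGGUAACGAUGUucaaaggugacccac
Mir429: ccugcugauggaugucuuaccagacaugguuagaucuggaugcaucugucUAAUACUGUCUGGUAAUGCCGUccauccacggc

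Total counts over mouse miRNA probes ranged from 451323 to 684771 per mouse, with a median of 575171. A miRNA was called detected where its count passed the mean plus 2 SD of the 8 negative control probes of the lane in at least 3 lanes, which 205 miRNAs did. Mice of a group differed by more than counting noise (chi-square per degree of freedom 17.3 to 92.3). The controls had sample IDs 1, 2 and 4, the low dose mice 5 to 8 and the high dose mice 9 to 12. The labels do not say whether these numbers are lane positions. If they are, effects of lane position and of LPS cannot be told apart. Of the markers set for other cells, 4 of 6 ciliated cell, 2 of 2 smooth muscle, 2 of 2 endothelial, 4 of 4 leukocyte, 3 of 3 red cell and 2 of 4 striated muscle miRNAs were detected. None of the 3 liver and brain markers was, with at most 84 raw counts. Leukocyte markers summed to 3582 to 4386 normalized counts in control, 4046 to 4581 in low dose and 3426 to 3726 in high dose mice. In whole oviduct, fewer epithelial cells and less of a miRNA per cell cannot be told apart.

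The miR-200 family was abundant in the oviduct. Its 5 members together made up 6.03% ± 0.494 of all miRNA counts (SD, n = 11), from 5.12% in low dose mouse 2 to 6.71% in high dose mouse 2. The levels that follow are normalized counts, counts scaled by trimmed mean of M-values (TMM) factors to the mean library. miR-200c had 9713 ± 1257 (SD, n = 11 mice), miR-200b 8798 ± 777 and miR-200a 7290 ± 918, which placed them 16th, 18th and 23rd of the 205 detected miRNAs. miR-141 followed with 4519 ± 473 and miR-429 with 4013 ± 588. miR-205 had 931 ± 215, miR-96 357 ± 46.5, miR-31 124 ± 18.6 and miR-183 78.4 ± 19.3. miR-182 was not detected: its 15 to 26 raw counts lay below the bound of every lane.

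In that order the ranges over the 11 mice overlapped between miR-200c and miR-200b, miR-200b and miR-200a, miR-141 and miR-429, and miR-31 and miR-183. They did not overlap between miR-200a and miR-141, miR-429 and miR-205, miR-205 and miR-96, or miR-96 and miR-31. Counts of different probes also depend on how well each miRNA is ligated and hybridised, which the files do not give. miR-183 passed the bound in 3 of 3 control, 1 of 4 low dose and 3 of 4 high dose mice, and miR-31 in 3 of 3, 3 of 4 and 3 of 4. The bound differed by lane, at 57.1 to 74.5 raw counts in control, 68.6 to 143 in low dose and 68.2 to 97.9 in high dose mice. Low dose mice 3 and 4 missed it with 78 and 77 raw counts of miR-183, while control mice 1 and 2 passed with 63 and 69. These counts of passing mice therefore do not compare levels between groups. miR-31 and miR-183 were both tested, but lie near the bound.

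**Figure D1:**
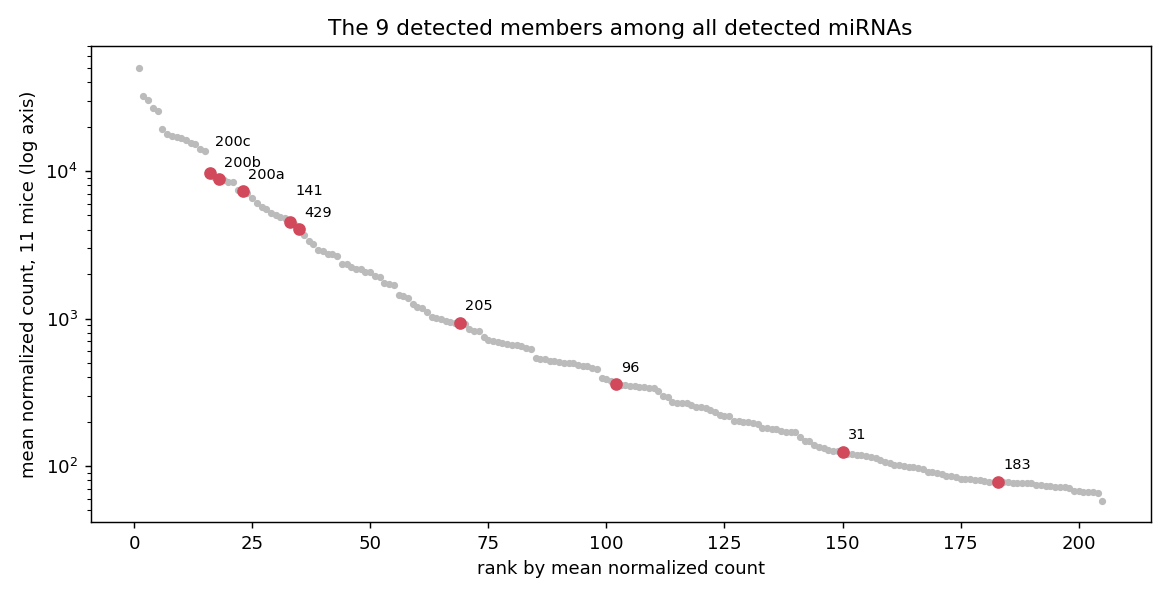
Mean normalized count over the 11 mice (log axis) of each of the 205 detected miRNAs, ordered by level; red points are the 9 detected members, labelled by number. The 5 members of the miR-200 family rank between 16 and 35, and miR-205, miR-96 and miR-31 rank 69, 102 and 150, with miR-183 lower still.

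None of the 9 detected members passed the test at either dose. The test was edgeR's quasi-likelihood test over all 205 detected miRNAs in one fit of the 3 groups, with Benjamini-Hochberg adjustment and a threshold of 0.05. At the low dose 0 of 9 members passed, against 5.85% of all miRNAs (3.41% higher and 2.44% lower), and 1 of 9 had an unadjusted p under 0.05, against 27.3%. At the high dose 0 of 9 passed, against 18.0% of all miRNAs (10.2% higher and 7.80% lower), and 0 of 9 had an unadjusted p under 0.05, against 33.2%. Between the doses 0 of 9 passed, against 0.488%, and 2 of 9 had an unadjusted p under 0.05, against 13.2%. The median log2 difference of the 9 members was -0.12 at the low dose, 0.09 at the high dose and 0.13 between the doses, and that of all miRNAs was -0.0015, -0.03 and -0.0031. Of the 9 members, 3 stood above control at the low dose and 5 at the high dose. The low and high dose comparisons share their control mice.

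**Figure D2:**
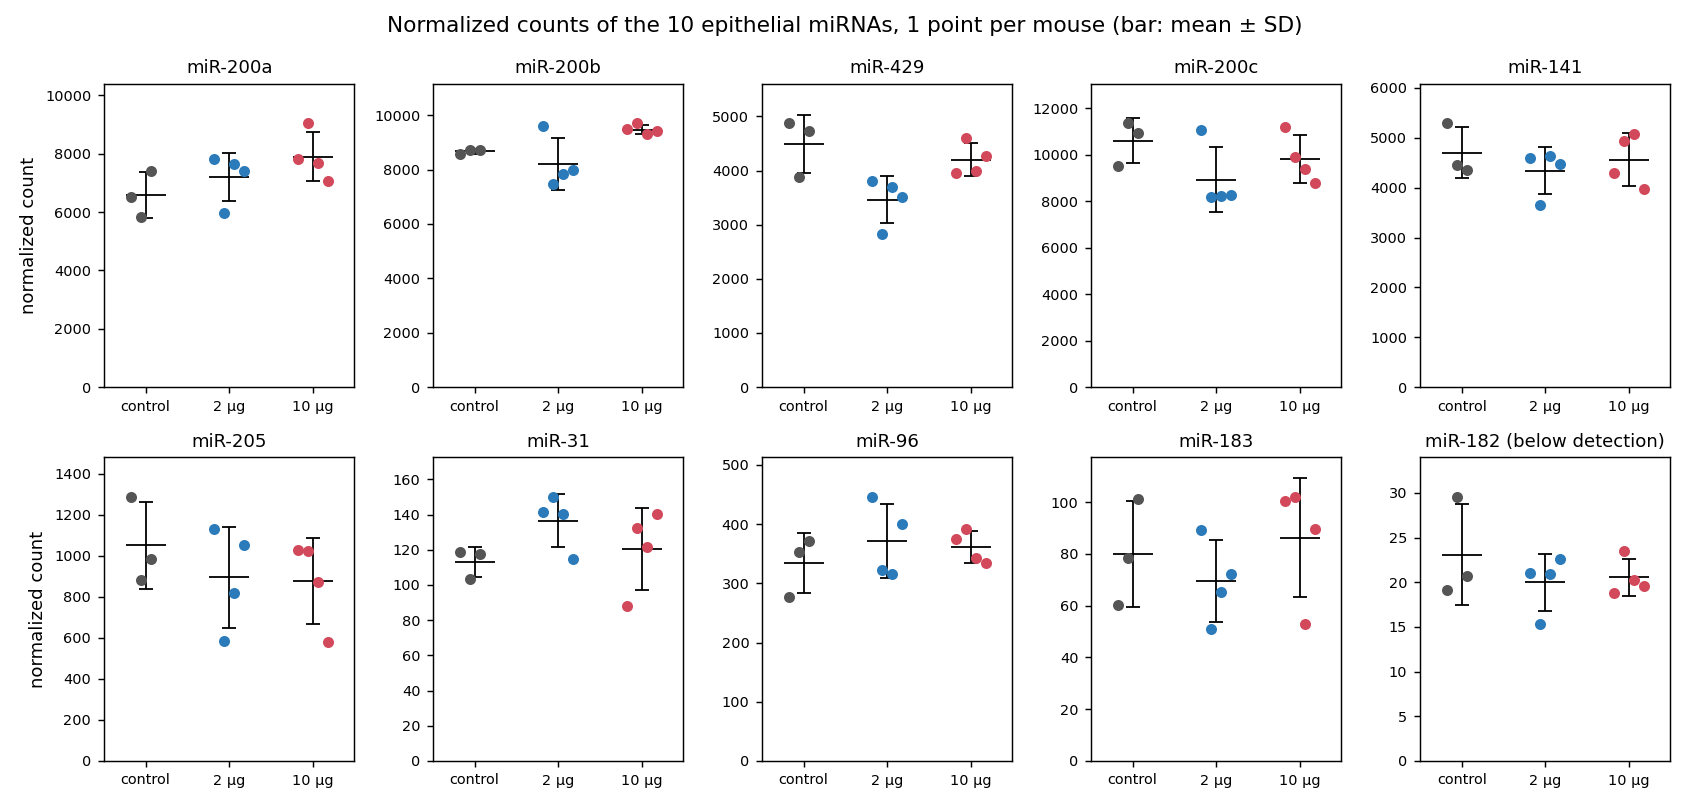
Normalized counts (vertical axis, from 0) of the 10 members in control mice and in mice given 2 or 10 µg of LPS; points are mice, and bars the mean ± SD. The groups overlap for most members; the exceptions among the detected ones are miR-429 at the low dose and miR-200b at the high dose against control, and miR-429 between the doses.

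miR-429 came nearest to the threshold. The 3 control mice had 4874, 3887 and 4725 normalized counts, the low dose mice 3811, 2831, 3701 and 3512, and the high dose mice 3952, 4593, 3985 and 4276. Every low dose mouse lay below every control and every high dose mouse, while control and high dose mice overlapped. The low dose mean was 3464 ± 439 (SD, n = 4) against 4495 ± 532 (n = 3), a log2 difference of -0.38 ± 0.12 SE (95% interval -0.64 to -0.11, edgeR adjusted p = 0.0767). This made it 22nd of 205 by p. DESeq2, as an alternative, called it at the low dose (-0.39, DESeq2 adjusted p = 0.0433), and over all 25 alternatives its log2 difference ran from -0.47 to -0.09 and its adjusted p from 0.0433 to 0.826. At the high dose the mean was 4201 ± 299, with a log2 difference from control of -0.10 (95% interval -0.36 to 0.17, edgeR adjusted p = 0.569). The high dose stood 0.28 ± 0.11 SE above the low dose on the log2 scale (edgeR adjusted p = 0.278). Groups that did not overlap were seen for 1 of 9 members in each comparison, against 23.9% of all miRNAs at the low dose, 27.3% at the high dose and 7.80% between the doses.

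miR-200a, whose gene lies beside Mir429, leaned the other way. Control mice had 6515, 5829 and 7395 normalized counts, low dose mice 7806, 5978, 7641 and 7403, and high dose mice 7806, 9048, 7693 and 7078. The group means were 6580 ± 785 (SD, n = 3), 7207 ± 836 (n = 4) and 7906 ± 826 (n = 4), and all groups overlapped. The high dose stood at 1.20-fold of control (95% interval 0.999 to 1.45, edgeR adjusted p = 0.153), and the low dose at 1.10-fold (0.911 to 1.32, edgeR adjusted p = 0.573).

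miR-200b was the steadiest member. Control mice had 8567, 8735 and 8706 normalized counts, and high dose mice 9478, 9704, 9294 and 9405, with no overlap. Low dose mice had 9616, 7453, 7821 and 7998, 1 above and 3 below all controls. The high dose mean was 1.09-fold of control (95% interval 0.950 to 1.26, edgeR adjusted p = 0.339). Between the doses it differed by 0.20 ± 0.09 SE on the log2 scale (edgeR adjusted p = 0.292). Its pooled SD between mice of a group was 0.10 on the log2 scale, lower than that of most detected miRNAs (percentile 11.7, median 0.18).

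miR-200c and miR-141, the pair on chromosome 6, did not separate the groups. For miR-200c, control mice had 9525, 11358 and 10930.4 normalized counts, low dose mice 11045, 8174, 8240.0 and 8279, and high dose mice 11205, 9887, 9404 and 8794. Low dose mouse 1 lay within the range of the controls, and the other 3 below it. The low dose mean was 0.843-fold of control (95% interval 0.697 to 1.02, edgeR adjusted p = 0.219), and the high dose mean 0.926-fold (0.766 to 1.12, edgeR adjusted p = 0.548). For miR-141, control mice had 5292, 4461 and 4347, low dose mice 4602, 3649, 4638 and 4467, and high dose mice 4288, 4928, 5070.1 and 3970.0. The groups overlapped throughout, at 0.923-fold of control for the low dose (0.768 to 1.11) and 0.971-fold for the high dose (0.808 to 1.17).

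The intervals give the size of difference these mice leave possible for the family. At the high dose the 95% intervals of the 5 members lay between 0.766-fold and 1.45-fold of control. At the low dose they lay between 0.643-fold (miR-429) and 1.32-fold (miR-200a). The largest difference from control of all 205 miRNAs at the high dose, and the lowest p, was that of miR-203. This miRNA of differentiating epithelium outside the 10 stood at 2.99-fold of control in the same fit (edgeR adjusted p = 2.85e-06). It was not typical of the other epithelial miRNAs listed below, of which 9 of 11 tested stood below control at that dose. A p that missed the threshold does not show that a member was at the same level in LPS and control mice.

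The 4 members outside the family that were detected had wider intervals. miR-205, which acts on the same ZEB targets, had 881 to 1288 normalized counts in control mice, 585 to 1129 at the low dose and 581 to 1027 at the high dose. Low dose mouse 2 and high dose mouse 4 were lowest. Its differences from control were -0.23 ± 0.24 SE and -0.27 ± 0.24 on the log2 scale (edgeR adjusted p = 0.614 and 0.452). The pooled SD within groups, 0.38 on the log2 scale, was at percentile 93.2 of detected miRNAs. miR-96 had 276 to 372, 316 to 446 and 335 to 392 normalized counts in control, low and high dose mice, 1.11-fold and 1.08-fold of control at the low and high dose (edgeR adjusted p = 0.567 and 0.569). miR-31 had 103 to 119, 115 to 150.04 and 87.9 to 140.2, with the low dose at 1.20-fold of control (95% interval 0.958 to 1.51, edgeR adjusted p = 0.272). miR-183 had 60.2 to 101, 51.0 to 89.0 and 53.0 to 102, and its intervals, 0.597 to 1.27-fold at the low dose and 0.739 to 1.57-fold at the high dose, were the widest of the 9. miR-182 was untested. Without the filter its log2 difference was -0.21 at the low dose and -0.19 at the high dose, at counts below the bound.

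**Figure D3:**
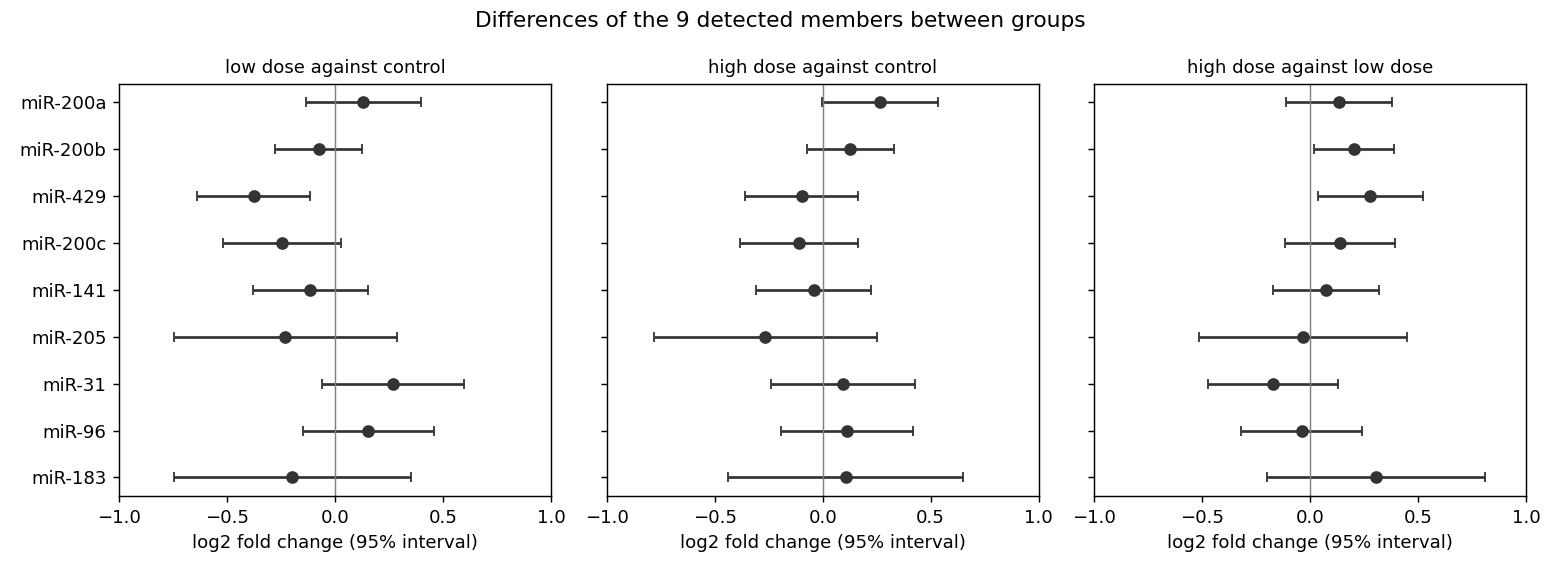
Log2 fold changes (points) with 95% intervals (bars) of the 9 detected members in the 3 comparisons, from the edgeR fit over 205 miRNAs. At the low dose the interval of miR-429 alone leaves 0 out, at the high dose none does, and between the doses those of miR-200b and miR-429 do; none passed after adjustment.

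Some of the small differences changed sign with the scaling. Scaled to the positive control probes in place of TMM, the median log2 difference of all miRNAs moved from -0.0015 to 0.18 at the low dose and from -0.03 to 0.12 at the high dose, and that of the 9 members from -0.12 to 0.06 and from 0.09 to 0.26. No member passed under this scaling or under scaling to the mRNA probes Actb, Gapdh and Rpl19. miR-200a stood above control at both doses and miR-429 below control at the low dose under all 25 alternatives, while the sign of miR-200b, miR-200c, miR-141, miR-205 and miR-183 at the low dose turned under 1 to 3 of them.

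The ratio of 2 miRNAs counted in one lane needs no scaling, so it was computed for members of one gene cluster, a choice made after the values were seen and given without a test. The ratio of miR-200a to miR-429 was 1.34, 1.50 and 1.57 in control mice. It was 2.05, 2.11, 2.06 and 2.11 in low dose mice, and 1.98, 1.97, 1.93 and 1.66 in high dose mice. All 3 groups were apart, with control lowest and the low dose highest. The mean ratio was 1.47 ± 0.118 (SD, n = 3) in control, 2.08 ± 0.0315 (n = 4) at the low dose and 1.88 ± 0.153 (n = 4) at the high dose, or 1.42-fold and 1.28-fold of control as geometric means. High dose mouse 4 set the size of the gap between the doses: the log2 difference was -0.15 with it and -0.09 without it.

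Both miRNAs had at least 2774 raw counts in every mouse. Counting error alone would give an SD of 0.0292 on the log2 scale at the low dose, where the mice had an SD of 0.0218, and 0.0287 and 0.0284 in control and high dose mice, where they had 0.118 and 0.122. Over all mice the pooled SD within groups was 0.0961, at percentile 0.842 of the 20910 pairs of detected miRNAs, whose median was 0.27. Many of those pairs hold miRNAs of far lower counts, where counting error is larger. The other pairs within the family lay between percentiles 1.85 (miR-200b and miR-200c) and 35.1 (miR-200c and miR-141). Across all these pairs, 24.1% kept low dose and control mice apart, 28.7% high dose and control mice, 6.75% the doses, and 2.65% all 3 groups. Among the 10 pairs within the family the counts were 3, 2, 1 and 1. Pairs of miRNAs whose ratio separates LPS from control mice were thus common in the table, and nothing particular to the family is read from these counts.

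The other ratios within the miR-200 clusters overlapped between groups. That of miR-200b to miR-429 was 1.95 ± 0.262 in control (SD, n = 3), 2.39 ± 0.235 at the low dose and 2.26 ± 0.129 at the high dose (n = 4 each). That of miR-200a to miR-200b was 0.759 ± 0.0911, 0.879 ± 0.0861 and 0.834 ± 0.0741. For miR-200c to miR-141 it was 2.29 ± 0.422, 2.07 ± 0.301 and 2.17 ± 0.329, with a pooled SD of 0.23 on the log2 scale. The pooled SD was 0.0961 for miR-200a and miR-429, 0.138 for miR-200b and miR-429, and 0.145 for miR-200a and miR-200b. For pairs of family members on different chromosomes it ran from 0.11 (miR-200b and miR-200c) to 0.23 (miR-200c and miR-429).

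In the miR-183 cluster the ratio of miR-183 to miR-96 was 0.218, 0.222 and 0.272 in control mice, 0.200, 0.158, 0.207 and 0.181 in low dose mice, and 0.268, 0.260, 0.155 and 0.268 in high dose mice. Every low dose mouse lay below every control mouse, while high dose mice overlapped both other groups, with high dose mouse 3 the lowest of the 11 and the other 3, at 0.260 to 0.268, above every low dose mouse. Low dose and control mice stayed apart, narrowly, after the mean of the negative controls was subtracted (at most 0.133 against at least 0.136). However, miR-183 passed the detection bound of its lane in only 1 low dose mouse, and that bound differed between lanes. Of the 5 pairs of detected neighbours in the 3 clusters, 2 thus kept low dose and control mice apart, 1 high dose and control mice, and 1 the doses, beside 24.1%, 28.7% and 6.75% of all pairs. These are descriptions with no test.

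**Figure D4:**
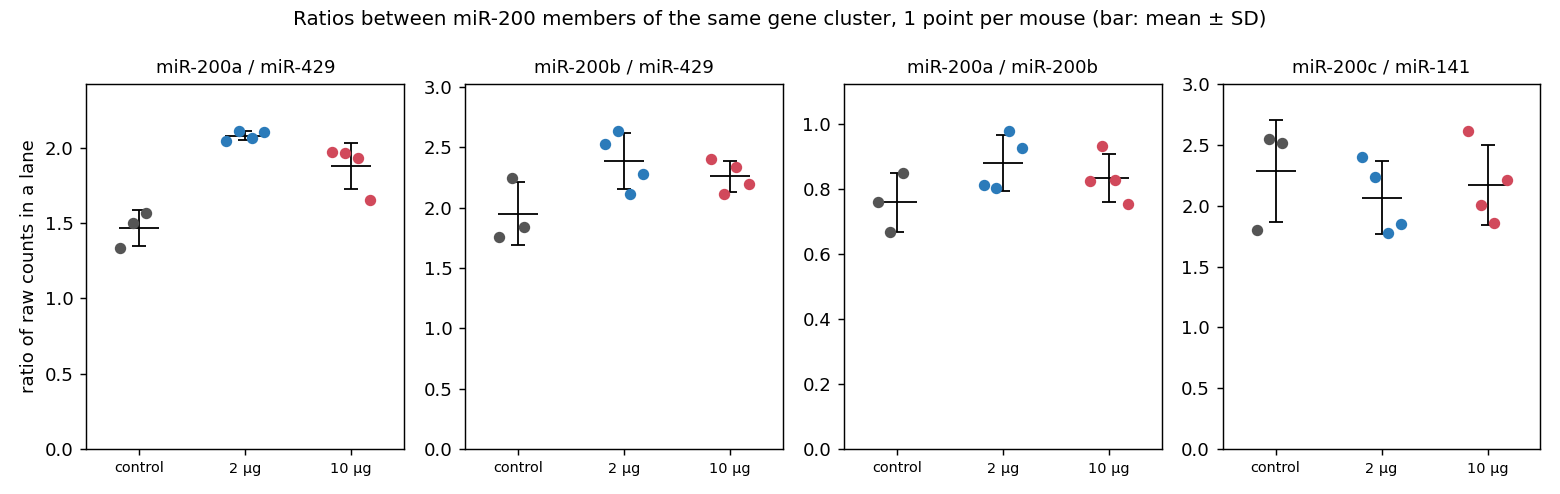
Ratio of raw counts in a lane (vertical axis, from 0) for 4 pairs of miR-200 members from one gene cluster, by group; points are mice and bars the mean ± SD. For miR-200a over miR-429 the control mice lie between 1.34 and 1.57, the low dose mice between 2.05 and 2.11 and the high dose mice between 1.66 and 1.98; the other ratios overlap.

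Other epithelial miRNAs gave the setting. Of a list of 16, 11 were tested, among them miR-34c and miR-449a of ciliated cells. At the low dose miR-203 rose and 10 of 11 did not pass, beside 5.85% of all miRNAs called. At the high dose miR-203 rose, 2 fell and 8 did not pass, beside 18.0% of all miRNAs called (10.2% higher and 7.80% lower), with a median log2 difference of -0.17 over the 11 against -0.03 for all miRNAs. Those that fell were miR-375, a miRNA of secretory and endocrine cells (log2 difference -1.37, edgeR adjusted p = 0.00305), and miR-210, better known as a hypoxia-induced miRNA (-0.55, edgeR adjusted p = 0.0394). Between the doses 1 of the 11 was called, higher at the high dose (edgeR adjusted p = 0.00141). It was the only call among all 205 miRNAs in that comparison (0.488%). The 4 detected ciliated cell markers did not pass at either dose. Their list summed to 23542 to 34007 normalized counts in control, 21947 to 28544 in low dose and 22608 to 28979 in high dose mice. Of a list of 17 stromal and muscle miRNAs, 15 were tested, miR-1 and miR-133a of striated muscle among them. None passed in the edgeR test at the low dose, the high dose or between the doses, beside 5.85%, 18.0% and 0.488% of all miRNAs. At an unadjusted p under 0.05 there were 2, 4 and 2 of 15, beside 27.3%, 33.2% and 13.2%.

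The miRNAs outside the 10 whose levels followed the family most closely over the 11 mice were miR-669a (Pearson r = 0.67 with the mean log2 level of the 5 members), miR-100 (0.57), miR-10a (0.50), let-7b (0.49) and miR-99a (0.47). For the mean of miR-96 and miR-183 they were miR-202-3p (r = 0.67), miR-2141 (0.65) and miR-130b (0.65). These r values are the highest of 196 each. The miRNAs of a mouse share its lane and scaling factor, and the groups are mixed. The r values are therefore a description with no test. miR-669a, miR-202-3p and miR-2141 averaged 74.7, 80.4 and 67.9 normalized counts, near the detection bound.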

How the data were processed

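The deposited table holds barcode counts per probe, 1 lane per mouse, and its header records no normalization by the authors. The values were labelled as estimated counts only because a lane measure with decimals shares the deposited columns. Every probe value was already whole and entered the main tests unrounded. No counting software is named in the sources used here. The 10 members, the lists and the tests were chosen with earlier results of these data known.

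Detection and TMM scaling were as stated above. Tests used edgeR 4.0.16 (R 4.3.3) on 205 miRNAs and all 11 mice, checked on simulated data. Standard errors are the log2 difference over the root of the F statistic. Per the labels' protocols each sample is a separate mouse. Alternatives were other scalings and filters, background subtraction, DESeq2 1.42.0, limma-voom (limma 3.58.1), the design text's analysis of variance with LSD contrasts, the compared groups alone, a block by replicate number, and the fit without each mouse. A detection bound without the negative control NEG_C and the checks of the ratio were chosen after seeing the data. Named miRNAs are the members, list miRNAs past the threshold, and the 5 and 3 most alike in level. No member's probe carried a background correction factor above 0.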

Additional observations from a re-analysis of the deposited data

Results flagged for a closer look

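In 28 groups of 4 mice (9 detected members and 5 ratios at each dose), the mouse at one end was set against the other 3 by Dixon's ratio (gap over range). Chance takes about 5% of groups past the 95% critical value, and 3 groups were past it. For miR-200c at the low dose, mouse 1 had 11045 normalized counts, against 8174 to 8279 in the other 3 (ratio 0.964). For the ratio of miR-200a to miR-429 at the high dose, mouse 4 had 1.66, against 1.93 to 1.98 in the other 3 (ratio 0.860). For the ratio of miR-183 to miR-96 at the high dose, mouse 3 had 0.155, against 0.260 to 0.268 in the other 3 (ratio 0.932). The part of sample handling in these was not tested.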

How the results depend on the processing

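No member passed in any comparison under 24 of 25 alternatives; DESeq2 called 1 at the low dose, miR-429. Of all miRNAs, the 12 calls at the low dose became 19 with library totals and 20 with DESeq2, and 3 to 13 without 1 mouse (3 without low dose mouse 4, 4 without control mouse 2, 6 without control mouse 1 or low dose mouse 2). The 37 at the high dose became 18 with positive control scaling and 16 with mRNA scaling without B2m, and 26 to 43 without 1 mouse. The 1 between doses became 0 and 0 with these scalings, 4 with DESeq2, 2 with the analysis of variance, and 1 to 14 without 1 mouse (14 without high dose mouse 3, 2 leaving out either high dose mouse 2 or low dose mouse 3). Higher calls were 7 of 12 and 21 of 37 with TMM, 14 of 19 and 26 of 34 with library totals, 8 of 8 and 16 of 18 with positive controls, and 12 of 12 and 14 of 16 with mRNA scaling.

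Over the 25 alternatives and the 3 comparisons, the tested members had 669 log2 differences in all. Of these 669 values, 25 had the opposite sign to the main test, none of them past the threshold. At the low dose, positive controls gave miR-200b 0.10, miR-141 0.060 and miR-183 0.0055, and mRNA scaling miR-200b 0.21, miR-200c 0.045, miR-141 0.17, miR-205 0.026 and miR-183 0.12. At the high dose, library totals gave miR-141 0.012; positive controls gave miR-200c 0.066, miR-141 0.12 and miR-429 0.050; mRNA scaling gave 0.072, 0.13 and 0.066. Between doses, mRNA scaling gave miR-141 -0.042. Without 1 mouse, miR-183 ranged from -0.37 to 0.011 at the low dose and -0.058 to 0.32 at the high dose, and miR-141 from -0.097 to 0.063 at the high dose and -0.0016 to 0.13 between doses. Between doses miR-205 ranged from -0.19 to 0.12 and miR-96 from -0.11 to 0.060. The causes were not tested. The ratio of miR-200a to miR-429 kept its direction without each mouse and after background subtraction.

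Replicate numbers did not pair the mice: same-numbered mice correlated at r = -0.29 to 0.40, with 2 of 10 pairs over 0.1, and 3 of 11 mice were closest to their own number. With the replicate block, calls were 11, 28 and 1 at the low dose, the high dose and between doses, and 0 members. Counts near the bound limit miR-31 and miR-183, and no alternative gives a usable level of miR-182.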

Other observations

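The mRNA probe for B2m, a component of MHC class I that rises in inflammation, counted 643 to 931 in control mice, 1608 to 4010.0 in low dose mice and 924 to 5052 in high dose mice. High dose mouse 2 held the 924, within the control range, against 4517 to 5052 in the other 3. The same mouse had the highest miR-200a (9048 normalized counts), miR-200b (9704) and miR-183 (102) of the 11, but was not highest for any other detected member. Next came low dose mouse 1 for miR-200b (9616) and control mouse 3 for miR-183 (101). The B2m counts are raw, and high dose mouse 2 also had the lowest Actb count of the 11, 1901. The part of this mouse in the group means was not tested beyond the fit without it, in which no member passed.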
